A study of Mus musculus with 12 samples.

Results

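Transverse aortic constriction (TAC) was compared with sham surgery in hearts of mice that carry the Bcl-xL S14A knock-in (KI) mutation. Of the 12 hearts of the series, 3 KI TAC hearts and 3 KI sham hearts were chosen by their labels for genotype and treatment alone, and no measured value entered the choice. The other 6 hearts came from wild-type (WT) mice, 3 after sham surgery and 3 after TAC, and were used for the common estimate of spread and for the test of a difference between genotypes. In TAC a ligature around the aortic arch loads the left ventricle with pressure, whereas sham mice are operated on but keep an open arch. All mice were males of 8 to 10 weeks on a C57BL/6 background by their labels (C57BL/6J in the methods of the study), and hearts were taken 9 h after surgery. Both KI groups carried the mutation in every tissue, so the comparison of KI TAC with KI sham hearts measures the response to surgery on the mutant background. The KI line was derived from R1 embryonic stem cells and backcrossed to C57BL/6J, its selection cassette was removed by a cross to CMV-Cre mice, and the WT mice were purchased. The labels do not give the number of mutant alleles, and by the text of the study its later experiments relied on homozygous KI mice. Mice are named by the numbers in their labels, KI sham 1, 2 and 3 and KI TAC 5, 6 and 7.

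Bcl-xL, the product of Bcl2l1 (ENSMUSG00000007659, GRCm38 chr2:152780668-152831728), is an anti-apoptotic member of the Bcl-2 family that sits in membranes of mitochondria and of the endoplasmic reticulum, where it binds pro-apoptotic relatives and inositol trisphosphate receptors. In S14A, serine 14 is replaced by alanine, which cannot be phosphorylated. The codon lies in exon 2 at GRCm38 chr2:152829949-152829951 on the minus strand. The start codon from which position 14 of 232 codons is counted is shared by 8 of 8 coding transcripts of the annotation. The reference sequence of codons 9 to 21 is shown because it holds the changed codon, in capitals, which a T-to-G change of its first base turns into a codon for alanine.
Bcl2l1 codons 9 to 21: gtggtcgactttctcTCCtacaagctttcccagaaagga
Pressure overload stretches cardiomyocytes and activates calcineurin, MAP kinase and serum response factor signalling, and the first wave of induced transcripts is formed by immediate early genes. Stretch-responsive, chaperone and inflammatory genes are also induced early, and genes of fatty acid oxidation and of ion channels are often lower in overloaded hearts. The question of the comparison was how KI hearts respond by functional class, with 36 classes of genes that were listed with earlier results of these data known. The share of a class that was called is therefore a description and not an independent finding.

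Expression was measured by sequencing of poly(A)-selected, strand-specific libraries and was deposited as RPKM, the reads on a gene scaled to its exon length and to the reads on all genes of the library. Depth was 24441454 to 32455171 reads on genes in KI sham hearts and 30298188 to 31676895 in KI TAC hearts, and a tested gene had 664.5 reads in the median (11240 genes). KI TAC 5 and KI sham 1 stood apart within their groups. The median ratio of KI TAC 5 to the geometric mean of the 12 mice was 0.811, against 0.914 and 1.03 in KI TAC 6 and 7 and 1.02 to 1.03 in KI sham hearts. KI TAC 5 also had the highest class means of immediate early and heat shock genes. KI sham 1 had the lowest Bcl2l1, the lowest Dbp (25.4 RPKM, against 105 and 81.9) and the lowest Fkbp5 (1.07 RPKM, against 4.77 and 4.42) of the KI sham hearts. Class counts of 3 or more calls that moved by more than 1.5 times without a heart are given without it. Medians near 0 turned sign when 1 KI heart was left out in 13 of 36 classes on at least 1 scale. The largest of these medians was 0.18 with all hearts. Medians above 0.2 in size on the deposited scale that moved by more than 1.5 times are given beside the class.

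The labelled tissue was checked against markers of cardiomyocytes and of the other cells a heart sample can hold. The summed level of 10 cardiomyocyte markers such as Myh6 and Tnnt2 was 20035 to 24414 RPKM in KI sham and 19007 to 26000 RPKM in KI TAC hearts. Of 11 neutrophil markers, 5 were in the table and 3 could be tested, and the 5 had summed levels of 0.53, 0.42 and 0.56 RPKM in sham and of 22.1, 13 and 6.03 RPKM in TAC hearts. The 3 (S100a8, S100a9 and Csf3r) were tested only because of their TAC levels, as each was under 1 RPKM in every sham heart and a gene needed 1 RPKM in 3 hearts to be tested. Summed levels of 11 smooth muscle and pericyte markers were 874 to 1095 RPKM in sham and 1421 to 1853 RPKM in TAC hearts. On both scales 2 of 11 were called higher (18.2%, against 8.52% of all genes tested), and 1 was called lower on the deposited scale alone. Their median log2 fold change was 0.15 on the deposited scale, with 3 of 11 negative. Cnn1 and Tagln, under 1 RPKM in every sham heart, were not among those called higher. Summed levels of 12 macrophage markers were 100 to 117 and 128 to 164 RPKM, with 1 of 12 called higher on both scales (8.33%). Atrial markers summed to 33.7 to 48.9 RPKM in sham and 20.5 to 23.5 RPKM in TAC hearts, and 2 adipocyte markers to 34.3 to 56.6 and 71.2 to 137 RPKM. Fibroblast, endothelial and erythrocyte markers had ranges of 615 to 740, 389 to 458 and 134 to 244 RPKM in sham and of 501 to 720, 488 to 506 and 97.8 to 258 RPKM in TAC hearts. The endothelial ranges did not overlap, and 2 of 11 markers were called higher on both scales (18.2%). The median fold change of the 11 was -0.04 on the deposited scale, with 6 negative, and 0.13 on the median-ratio scale, with 4 negative. Fabp4 is in both the endothelial and the adipocyte list. On both scales 1 of 10 fibroblast (10%) and none of 5 erythrocyte markers were called higher. None of the listed lymphocyte, skeletal muscle or lung markers was in the table. In bulk RNA, fewer cells of a type and less RNA per cell cannot be told apart.

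Surgery was followed by changes in both directions, and which direction prevailed depended on the scale. On the deposited scale, RPKM values were used as they are. On the median-ratio scale, each heart's RPKM values were first divided by the heart's median ratio to the geometric mean of the 12 hearts, which sets the typical gene to no change. Differences were tested with limma on log2(RPKM + 1), and genes with a Benjamini-Hochberg adjusted p under 0.05 over the 11240 genes tested are referred to as called. On the deposited scale 963 genes were higher and 1657 lower in KI TAC hearts (8.57% and 14.7% of the genes tested), with a median log2 fold change of -0.10 over all genes. On the median-ratio scale 1557 were higher and 1272 lower (13.9% and 11.3%), with a median of 0.03. The share of calls that were higher was therefore 36.8% on the deposited and 55.04% on the median-ratio scale. It was 44.8% after upper-quartile scaling and 48.3% after quantile normalization. Both scales called 2225 genes, 958 higher and 1267 lower (8.52% and 11.3% of the genes tested), and no gene was called in opposite directions. The scales differed on 390 genes called lower only on the deposited scale, whose median log2 fold change there was -0.62, and on 599 genes called higher only on the median-ratio scale, with a median of 0.55 there. Fold changes on the median-ratio scale exceeded those on the deposited scale by a median of 0.14 on the log2 scale (5th to 95th percentile 0.07 to 0.17).

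Large changes were counted with the same shift between scales. Of the called genes, 396 on the deposited and 514 on the median-ratio scale were higher by at least 1 on the log2 scale and 452 and 297 were lower by at least 1. A log2 fold change of at least 2 was reached by 99 and 112 higher genes and by 20 and 9 lower genes. The 3 KI TAC and 3 KI sham values of a gene did not overlap for 4306 genes on the deposited scale (38.3%) and for 4498 on the median-ratio scale (40.02%). Without KI sham 3 the calls on both scales were reduced to 576 higher and 616 lower, without KI TAC 6 they were 788 and 818, and without KI TAC 5 they were 826 and 931. In 12 classes, 1 to 11 tested members had reached 1 RPKM in TAC hearts alone. Their level in TAC hearts was needed for them to be tested, and the count is given beside the 3 classes in which 3 or more of them were called. Ankrd2, Fosl1, Egr2, Egr3, Psat1 and Sphk1 were also such members. In the 15 classes described below with no member called lower on both scales, at most 1 member was lower at an unadjusted p under 0.05 on both scales, and limma-voom on recovered reads called none lower. Below, fold changes are log2 values of RPKM + 1 on the deposited scale unless stated, with the standard error of the fit and 3 hearts a group. The pseudocount of 1 makes fold changes of low genes smaller, and values with a pseudocount of 0.1 are given for named genes that they move by more than 1.5 times.

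**Figure D1:**
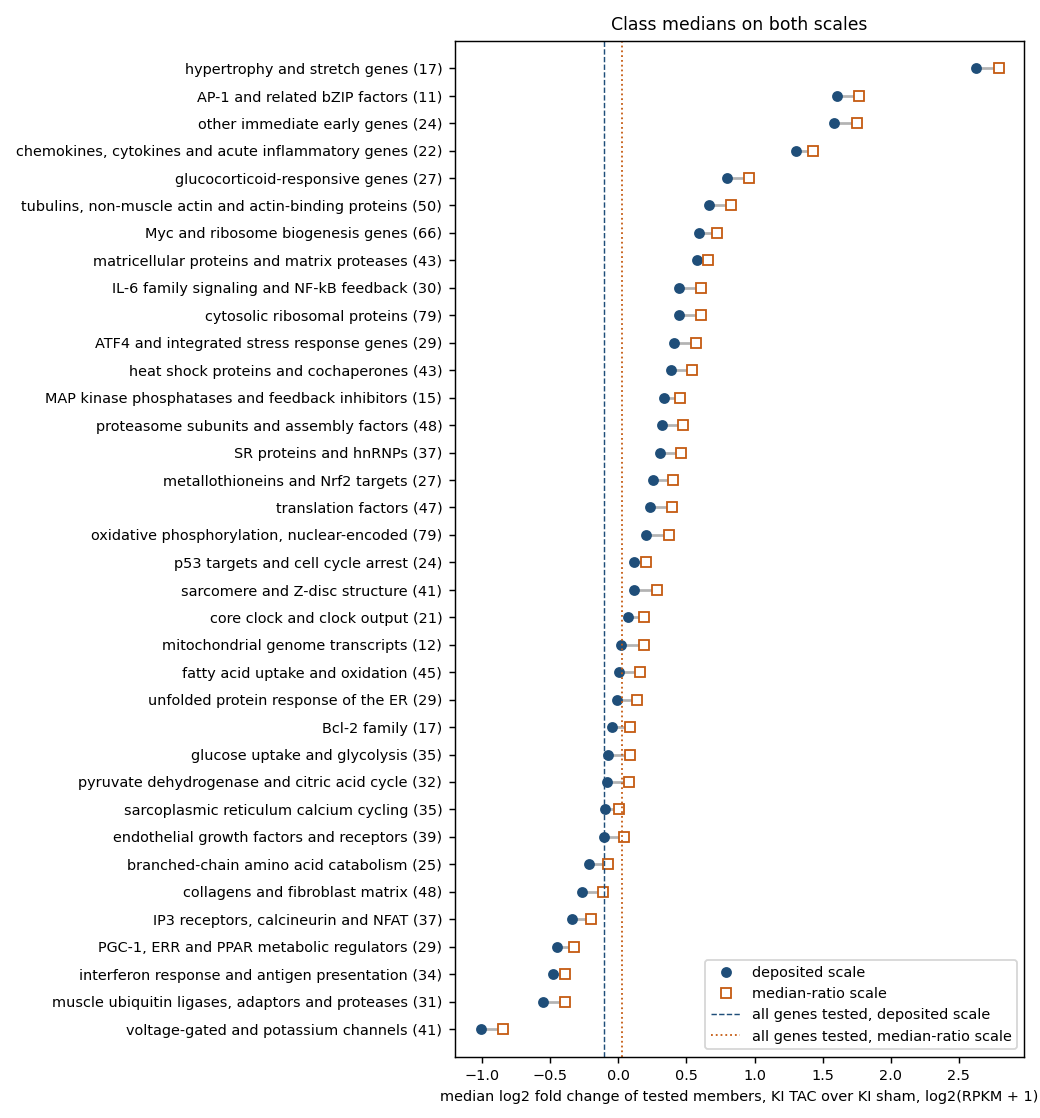
Median log2 fold change of KI TAC over KI sham hearts (x axis, log2(RPKM + 1)) in 36 functional classes with the number of genes tested in brackets, as circles on the deposited scale and squares on the median-ratio scale. The vertical lines show the median of all genes tested, -0.10 and 0.03. Hypertrophy and stretch genes (2.63 and 2.79) lie farthest to the right and voltage-gated and potassium channels (-1.01 and -0.84) farthest to the left.

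**Figure D2:**
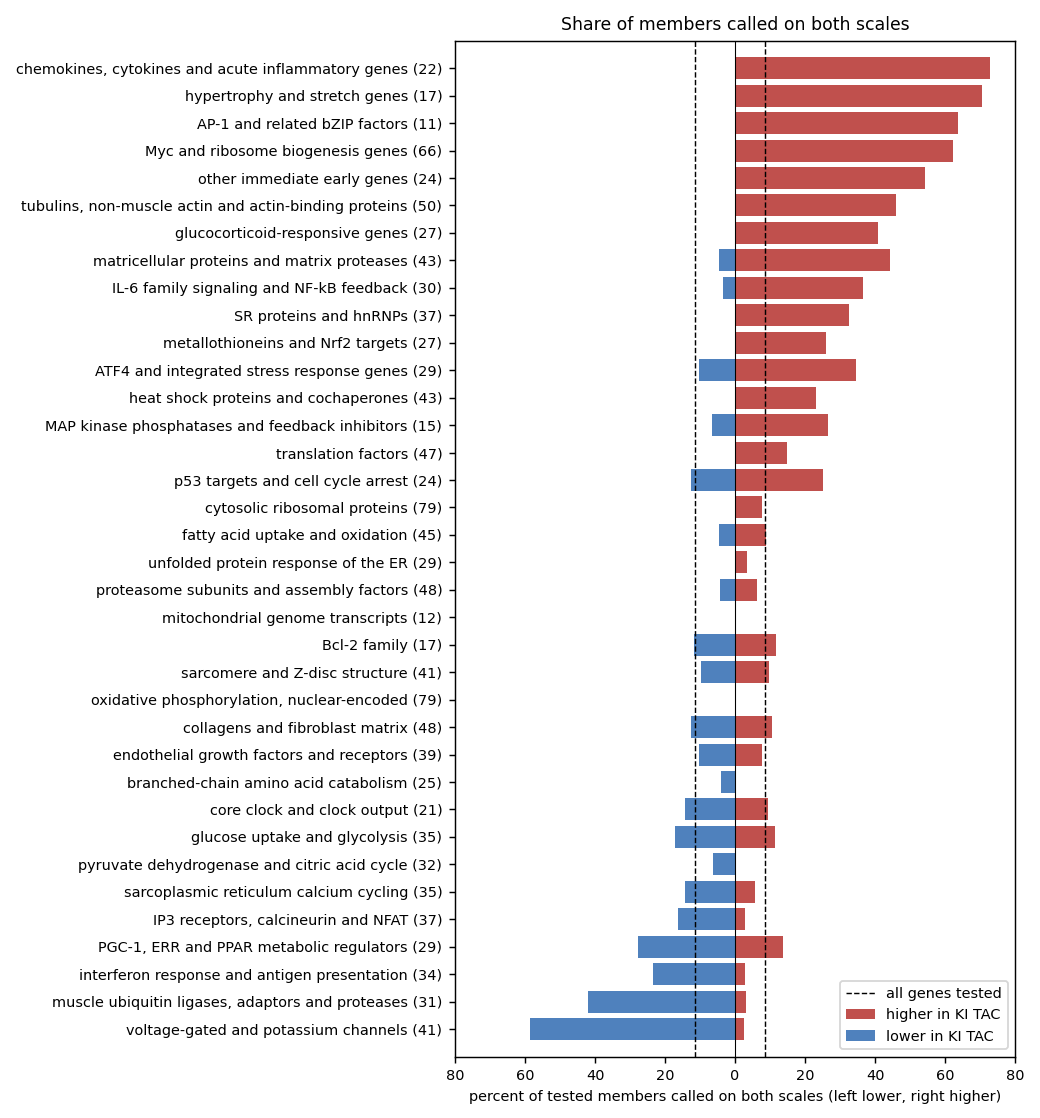
Percent of the tested members of each class called on both scales, lower to the left and higher to the right of 0, with dashed lines at the percent of all genes tested (11.3% lower and 8.52% higher). Bars of hypertrophy genes, chemokines, AP-1 factors and ribosome biogenesis genes reach far to the right, and those of channels and of ubiquitin ligases far to the left.

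The gene that carries the mutation was itself higher after TAC. Bcl2l1 was at 6.67, 19.1 and 16.0 RPKM in KI sham 1, 2 and 3 and at 35.8, 37.0 and 24.5 RPKM in KI TAC 5, 6 and 7. All TAC hearts were above all sham hearts, and KI sham 1 was far below the other sham hearts. The log2 fold change was 1.26 ± 0.40 (SE, adjusted p = 0.0354), or 1.42 on the median-ratio scale (adjusted p = 0.0383). The call rested on single hearts, since the fold change was 0.83 without KI sham 1 (adjusted p = 0.143), 1.41 without KI sham 3 (adjusted p = 0.0576), 1.18 without KI TAC 5 (adjusted p = 0.0971) and 1.15 without KI TAC 6 (adjusted p = 0.102). The S14A change alters a codon, and the RPKM of the gene does not measure the mutation or the phosphorylation of the protein.

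Among 17 tested genes listed under the Bcl-2 family, 2 were higher and 2 lower on both scales (11.8% each, against 8.52% and 11.3% of all genes tested), with median fold changes of -0.05 and 0.08. With 1 heart left out the counts were 0 to 2 higher (0 without KI sham 3 or KI TAC 5) and 1 or 2 lower. The other higher gene was Bcl10, which shares the name but encodes an adaptor of NF-kB signalling, with 3.80, 3.12 and 2.81 RPKM in sham and 6.04, 4.86 and 4.84 RPKM in TAC hearts (log2 fold change 0.56 ± 0.16, adjusted p = 0.0194). Its call was lost on the deposited scale without KI sham 2 (0.54, adjusted p = 0.0505), KI sham 3 (0.48, adjusted p = 0.0966) or KI TAC 5 (0.47, adjusted p = 0.0679). Bcl2l11, which encodes the pro-apoptotic protein Bim, was at 2.99, 2.2 and 2.61 RPKM in sham and at 1.09, 0.885 and 1.04 RPKM in TAC hearts. Each TAC heart was below each sham heart, and Bcl2l11 fell by 0.84 on the log2 scale (SE 0.14, adjusted p = 0.00118, and by 1.29 with a pseudocount of 0.1). Bcl2l12 was at 5.76, 7.46 and 7.24 RPKM in sham and at 3.89, 3.08 and 3.74 RPKM in TAC hearts (log2 fold change -0.77 ± 0.20, adjusted p = 0.0145), and lost its call without KI sham 3 (-0.73, adjusted p = 0.0598) or KI TAC 6 (-0.69, adjusted p = 0.0568).

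Most of the hypertrophy and stretch genes rose. Of 17 tested, 12 were higher and none lower on both scales, 1 was lower on the deposited scale alone, and the median fold change was 2.63 on the deposited and 2.79 on the median-ratio scale, against -0.10 and 0.03 for all genes. Without any single KI heart, 10 to 12 members were higher on both scales. Ankrd2, which encodes a stretch-responsive ankyrin repeat protein of the sarcomere, had the largest increase of all named genes. It was at 0.467, 0.670 and 0.298 RPKM in sham hearts and at 76.1, 149 and 97.5 RPKM in TAC hearts. The groups were separated by a wide gap, with a log2 fold change of 6.15 ± 0.49 (adjusted p = 1.07e-05).

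Fhl1, which encodes a LIM protein that binds titin, went from 52.2, 42.8 and 36.8 RPKM in sham to 325, 445 and 520 RPKM in TAC hearts (log2 fold change 3.25 ± 0.28, adjusted p = 1.36e-05). Ccn2, a matricellular protein induced by stretch, was at 23.7, 35.0 and 29.4 RPKM in sham and at 346, 263 and 311 RPKM in TAC hearts (3.35 ± 0.36, adjusted p = 7.21e-05). Both genes varied little between TAC hearts, in contrast to Hbegf, a ligand of the epidermal growth factor receptor, which was at 4.55, 4.49 and 3.71 RPKM in sham and at 228, 87.2 and 46.0 RPKM in TAC hearts, highest in KI TAC 5 (4.23 ± 0.53, adjusted p = 0.000186). Rcan1, a feedback inhibitor and target of calcineurin, was at 24.3, 22.6 and 20.4 RPKM in sham and at 233, 230 and 141 RPKM in TAC hearts.

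The natriuretic peptide and fetal sarcomere genes differed among themselves. Nppb, which encodes B-type natriuretic peptide, was at 156, 112 and 64.5 RPKM in sham and at 1352, 2261 and 1278 RPKM in TAC hearts, without overlap. Nppa, which encodes atrial natriuretic peptide, was at 41.1, 65.2 and 27.1 RPKM in sham and at 57.8, 79.96 and 195 RPKM in TAC hearts, and KI TAC 5 lay below KI sham 2. Its log2 fold change was 1.19 ± 0.53 (adjusted p = 0.119) and 1.35 on the median-ratio scale (adjusted p = 0.0626), neither of which passed the test, and without KI sham 2 the latter was 1.67 (adjusted p = 0.049), whereas without KI TAC 7 the former was 0.69 (adjusted p = 0.372). Myh7, the slow myosin heavy chain, was at 26.5, 33.2 and 33.5 RPKM in sham and at 33.6, 47.0 and 21.1 RPKM in TAC hearts, and the groups overlapped (0.06 ± 0.44, adjusted p = 0.937). Acta1, skeletal alpha-actin, was at 360, 138 and 110 RPKM in sham and at 318, 544 and 1007 RPKM in TAC hearts, so that KI sham 1 lay above KI TAC 5 on the deposited scale. The log2 fold change of Acta1 was 1.66 ± 0.52 (adjusted p = 0.0328), and the call was lost on the deposited scale without KI sham 2 (1.49, adjusted p = 0.0987), KI sham 3 (1.32, adjusted p = 0.138), KI TAC 6 (1.68, adjusted p = 0.074) or KI TAC 7 (1.24, adjusted p = 0.118). Nppb and Acta1 were chosen for naming after their values were seen.

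The CArG box is the binding motif of serum response factor, which links stretch and actin dynamics to transcription. Promoters of RefSeq (GRCm38.p6, 250 bases before to 50 after the start) were searched on both strands, and 4 of 20 promoters of tested hypertrophy and stretch genes held a CArG box (20%, in Acta1, Fhl1 and Fhl2), against 1.63% of all 32851 promoters. Of 9 members higher on both scales with a promoter, 2 held the box, against 3 of all 14 members with a promoter. The promoter of Acta1 (chr8:123894726-123895025, minus strand) is shown because its box, in capitals, lies 73 bases before the start.
Acta1: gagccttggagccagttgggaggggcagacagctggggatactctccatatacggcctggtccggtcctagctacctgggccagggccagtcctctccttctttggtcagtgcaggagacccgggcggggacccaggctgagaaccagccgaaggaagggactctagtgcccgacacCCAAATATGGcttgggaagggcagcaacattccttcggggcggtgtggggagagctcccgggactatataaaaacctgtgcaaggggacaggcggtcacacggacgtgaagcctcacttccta
A match of letters is a description of the sequence, and binding was not measured.

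The immediate early genes that were called were all higher at 9 h, with class means highest in KI TAC 5. Of 11 tested AP-1 and related bZIP factors, 7 were higher and none lower on both scales (median log2 fold change 1.60 and 1.76), and the same count was obtained without any single KI heart. Atf3, a stress-induced repressor, was at 5.36, 3.31 and 2.47 RPKM in sham and at 545, 82.1 and 27.9 RPKM in TAC hearts (4.58 ± 0.76, adjusted p = 0.00109). Fos, the partner of Jun in AP-1, was at 2.40, 0.634 and 0.485 RPKM in sham and at 200, 22.8 and 7.38 RPKM in TAC hearts (4.08 ± 0.81, adjusted p = 0.00317). For both genes the TAC hearts spanned more than a factor of 10 and were still all above the sham hearts, which KI sham 1 topped. Junb was steadier, at 17.1, 13.8 and 11.9 RPKM in sham and 147, 84.5 and 76.7 RPKM in TAC hearts (2.72 ± 0.35, adjusted p = 0.000197). Maff rose from 5.30, 7.59 and 5.69 to 63.6, 25.7 and 18 RPKM (2.17 ± 0.39, adjusted p = 0.00182). Fosl1, which was near 0 in sham hearts (0.0201, 0.0978 and 0.0758 RPKM), reached 24.3, 2.98 and 3.07 RPKM in TAC hearts, a fold change of 2.80, or 5.27 with a pseudocount of 0.1 (adjusted p = 0.00298). The mean of log2(median-ratio RPKM + 1) over the AP-1 class was 3.63, 3.51 and 3.34 in sham hearts and 6.67, 5.09 and 4.72 in TAC hearts.

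Of 24 other immediate early genes tested, 13 were higher and none lower on both scales (median 1.59 and 1.75), and 12 to 15 were higher without any single KI heart. Egr1, an early growth response zinc finger factor, was at 3.44, 1.34 and 1.47 RPKM in sham and at 100, 29.3 and 13.4 RPKM in TAC hearts (3.58 ± 0.63, adjusted p = 0.00154). Egr2 and Egr3, its relatives, had fold changes of 1.81 and 2.08 (3.65 and 3.25 with a pseudocount of 0.1) and no overlap of groups. Btg2, an antiproliferative gene, went from 17.4, 8.99 and 8.90 RPKM in sham to 187, 101 and 86.9 RPKM in TAC hearts (3.29 ± 0.37, adjusted p = 0.000103). Myc, whose product drives ribosome biogenesis, was at 2.74, 4.52 and 3.73 RPKM in sham and at 86.8, 32.4 and 24.5 RPKM in TAC hearts (3.19 ± 0.41, adjusted p = 0.000206). Zfp36, whose product tristetraprolin binds AU-rich elements and speeds the decay of inflammatory mRNAs, was at 9.15, 10.3 and 9.53 RPKM in sham and at 44.5, 32.8 and 25.7 RPKM in TAC hearts (1.70 ± 0.30, adjusted p = 0.00166). The sham values of Zfp36, a gene chosen after its values were seen, differed little and lay below every TAC value. Of the promoters of this class, 6 of 24 held a CArG box (25.0%, in Egr2, Srf and Zfp36), and that of Zfp36 (chr7:28379179-28379478, minus strand) is shown with its box in capitals, 58 bases before the start. Of 8 members of this class higher on both scales with a promoter, 2 held the box, against 3 of all 17 members with a promoter. The box was found in none of 14 promoters of the AP-1 class and none of 32 promoters of channel genes. It was in 4 of 49 promoters of cytoskeleton genes (8.16%). No match says only that the letters are not in these windows.
Zfp36: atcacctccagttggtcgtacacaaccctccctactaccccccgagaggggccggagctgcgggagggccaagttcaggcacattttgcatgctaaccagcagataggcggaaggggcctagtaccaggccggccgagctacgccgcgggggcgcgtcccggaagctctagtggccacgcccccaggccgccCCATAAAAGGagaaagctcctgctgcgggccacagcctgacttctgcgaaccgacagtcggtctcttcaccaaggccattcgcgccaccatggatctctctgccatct

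Of 15 tested feedback inhibitors of MAP kinase signalling, 4 were higher and 1 lower on both scales (26.7% and 6.67%, against 8.52% and 11.3% of all genes tested, median 0.34 and 0.45). The medians were 0.15 and 0.21 without KI TAC 5 and 0.60 and 0.75 without KI sham 1. Dusp5, a nuclear phosphatase of ERK, rose from 3.89, 1.90 and 1.88 to 34.1, 7.97 and 10.8 RPKM (2.17 ± 0.40, adjusted p = 0.00187). Spry4, a Sprouty inhibitor of receptor tyrosine kinase signalling, rose from 6.42, 3.96 and 4.16 to 28.6, 12.9 and 11.4 RPKM, and Errfi1, an inhibitor of the epidermal growth factor receptor, from 14.8, 5.47 and 6.12 to 70.7, 34.9 and 23.9 RPKM. In all of these KI TAC 5 was the highest heart and KI sham 1 the highest of the sham hearts. Dusp7, a cytoplasmic ERK phosphatase, was lower, at 193, 160 and 158 RPKM in sham and at 74.8, 34.2 and 65.8 RPKM in TAC hearts (-1.60 ± 0.31, adjusted p = 0.00268). Dusp1, the early MAP kinase phosphatase, did not pass the test (0.42, adjusted p = 0.379), with 86.7, 56.9 and 50.4 RPKM in sham and 135, 65.7 and 67.9 RPKM in TAC hearts.

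**Figure D3:**
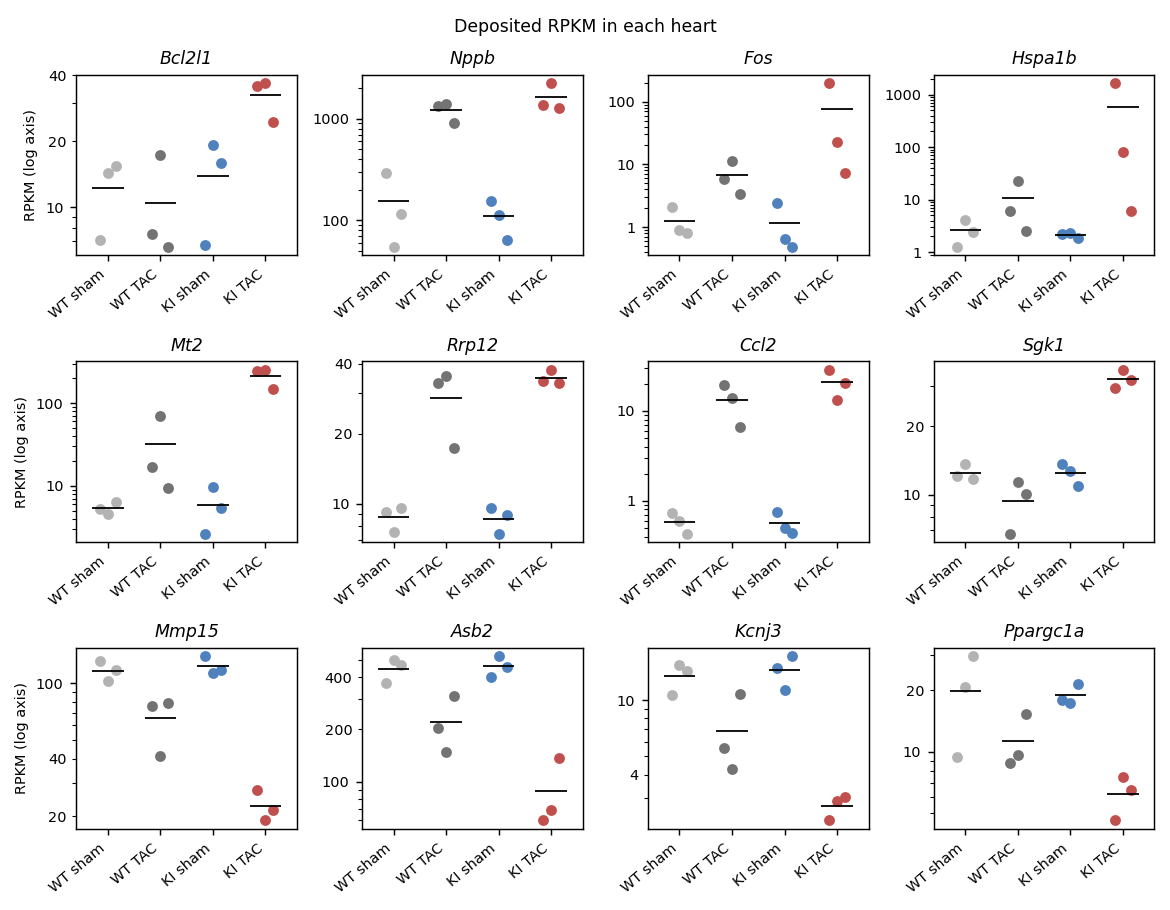
RPKM on the deposited scale (log axis) of 12 genes in each of the 12 hearts, 3 hearts a group, with the group mean as a black line. For Fos and Hspa1b the 3 KI TAC points are spread over more than a factor of 10 with KI TAC 5 on top (200 and 1690 RPKM), whereas for Rrp12, Mmp15 and Sgk1 they lie close together and apart from the KI sham points.

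A minority of heat shock proteins rose, in numbers that depended on the heart and the scale. Of 43 tested heat shock proteins and cochaperones, 10 were higher and none lower on both scales (23.3% higher, against 8.52% of all genes tested). On the deposited scale 11 were higher and on the median-ratio scale 17, where 8.57% and 13.9% of all genes tested were (median 0.38 and 0.54). Without KI TAC 5 the count on both scales was 7 higher and 1 lower, without KI sham 1 and 3 in turn it was 6 and 5 higher, and without KI TAC 7 it was 18 higher. Hspa1b, an inducible Hsp70, was at 2.22, 2.34 and 1.89 RPKM in sham and at 1690, 79.9 and 5.99 RPKM in TAC hearts. The groups did not overlap, although KI TAC 7 was only a little above the sham hearts and KI TAC 5 far above all others. The log2 fold change was 4.97 ± 1.33 (adjusted p = 0.0163), it was 2.92 without KI TAC 5 (adjusted p = 0.0349), and the call was lost without KI sham 3 (4.91, adjusted p = 0.0513). Its near-identical neighbour Hspa1a was at 1.78, 2.26 and 1.16 RPKM in sham and at 1356, 75.1 and 4.66 RPKM in TAC hearts (4.96 ± 1.33, adjusted p = 0.0168), with 2.94 without KI TAC 5 (adjusted p = 0.0421) and no call without KI sham 3 (4.80, adjusted p = 0.0562). How reads were divided between these copies is uncertain, and their promoter windows in RefSeq were identical at 296 of 300 bases.

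Small heat shock proteins protect myofibrils, and those called were closer together between TAC hearts than Hspa1b. Hspb1 was at 156, 238 and 148 RPKM in sham and at 4950, 2161 and 1565 RPKM in TAC hearts (3.85 ± 0.46, adjusted p = 0.000132). Hspb7, the cardiac member that binds filamin C, was at 829, 966 and 948 RPKM in sham and at 2006, 2466 and 2697 RPKM in TAC hearts (1.38 ± 0.19, adjusted p = 0.000265), and here KI TAC 5 was the lowest TAC heart. Cryab, alpha-B crystallin, went from 608, 1032 and 725 to 3365, 1671 and 1826 RPKM (1.5 ± 0.28, adjusted p = 0.00225), and Dnajb4, an Hsp70 cochaperone, from 5.75, 5.92 and 5.62 to 24, 17.2 and 12.9 RPKM (1.45 ± 0.23, adjusted p = 0.000872). Hspb6 and Hspa4 passed the test on the median-ratio scale only, with fold changes there of 0.76 and 0.61 (adjusted p = 0.0193 and 0.0253), against 0.59 and 0.45 on the deposited scale (adjusted p = 0.061 and 0.0741).

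Heat shock factor binds inverted repeats of the unit GAA, and the pair GAANNTTC or TTCNNGAA was found in 19 of 47 promoters of 34 tested heat shock genes (40.4%), against 15.1% of all promoters (4946 of 32851), and in promoters of 6 of 7 members that were higher on both scales and had a promoter. Hspb1 (chr5:135887669-135887968, plus strand) held the pair at 117 and 97 bases before the start and Hspa1b (chr17:34959189-34959488, minus strand) at 104 bases, in capitals.
Hspb1: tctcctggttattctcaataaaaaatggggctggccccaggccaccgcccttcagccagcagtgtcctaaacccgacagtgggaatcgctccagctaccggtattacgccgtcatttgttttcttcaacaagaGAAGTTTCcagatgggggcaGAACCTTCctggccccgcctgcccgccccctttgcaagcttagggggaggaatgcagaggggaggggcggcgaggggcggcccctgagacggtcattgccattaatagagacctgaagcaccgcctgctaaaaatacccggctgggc
Hspa1b: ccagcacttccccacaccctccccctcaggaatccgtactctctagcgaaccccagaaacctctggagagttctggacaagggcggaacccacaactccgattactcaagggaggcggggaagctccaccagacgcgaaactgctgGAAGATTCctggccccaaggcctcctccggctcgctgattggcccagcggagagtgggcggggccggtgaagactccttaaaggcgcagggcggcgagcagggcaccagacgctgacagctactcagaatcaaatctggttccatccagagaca

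Metallothionein and Nrf2 target genes, which bind metals and detoxify oxidants, included increases with TAC hearts that lay close together. Of 27 tested, 7 were higher and none lower on both scales (25.9% higher, against 8.52% of all genes tested, median 0.25 and 0.40). On the median-ratio scale, where 13.9% of all genes tested were higher, 12 were. On the deposited scale alone 1 was lower. Without any single KI heart, 6 to 8 were higher, and the median on the deposited scale was 0.39 without KI TAC 5 and 0.14 without KI TAC 7. Mt2 was at 2.64, 9.75 and 5.40 RPKM in sham and at 246, 254 and 146 RPKM in TAC hearts, and Mt1 at 13.9, 39 and 32.0 and at 179, 206 and 166 RPKM. Both metallothioneins were lowest in KI sham 1 and had no overlap of groups, with log2 fold changes of 5.06 ± 0.54 for Mt2 (adjusted p = 7.21e-05) and 2.77 ± 0.41 for Mt1 (adjusted p = 0.000491). Hmox1, the heme-degrading enzyme, was at 1.94, 3.179 and 3.43 RPKM in sham and at 23.8, 21.8 and 18.7 RPKM in TAC hearts (2.56 ± 0.20, adjusted p = 1.07e-05). Txnrd1, thioredoxin reductase, was at 9.12, 7.61 and 8.04 RPKM in sham and at 24.3, 25.0 and 25.7 RPKM in TAC hearts (1.49 ± 0.16, adjusted p = 7.21e-05). The TAC values of these enzymes lay close together, unlike those of Hspa1b. Srxn1, sulfiredoxin, rose by 2.17 (adjusted p = 0.000228), and Nfe2l2, which encodes Nrf2 itself, passed the test on the median-ratio scale only (0.63, adjusted p = 0.0279, against 0.47 and 0.0734), with 18.1, 18.2 and 17.6 RPKM in sham and 25.4, 25.5 and 25.0 RPKM in TAC hearts.

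Metallothionein genes are switched on by zinc through metal response elements. The core of this element, TGCACNC or TGCGCNC on either strand, was found in 7 of 29 promoters of this class (24.1%), a share near the 25.7% of all promoters. The promoter of Mt2 (chr8:94172368-94172667, plus strand) is shown because it held 4 cores, in capitals, at 223, 128 and 50 bases before the start and 4 bases after it. The AP-1 motif TGANTCA was in 5 of the 29 (17.2%), against 7.81% of all promoters.
Mt2: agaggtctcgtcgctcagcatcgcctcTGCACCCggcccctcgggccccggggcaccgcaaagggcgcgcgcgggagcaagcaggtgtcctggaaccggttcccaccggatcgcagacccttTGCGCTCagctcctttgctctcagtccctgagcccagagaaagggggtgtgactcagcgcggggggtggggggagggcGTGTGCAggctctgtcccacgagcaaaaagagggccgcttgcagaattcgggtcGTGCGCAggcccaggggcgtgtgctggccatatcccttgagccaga

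Few targets of the unfolded protein response of the endoplasmic reticulum passed the test. Of 29 tested, 1 was higher and none lower on both scales (3.45% and 0%, against 8.52% and 11.3% of all genes tested, median -0.01 and 0.14). Hspa5, the luminal chaperone BiP, was at 71.5, 61.0 and 56.4 RPKM in sham and at 67.0, 81.9 and 83.6 RPKM in TAC hearts and did not pass the test (0.30, adjusted p = 0.391). Genes of ATF4 and the integrated stress response, which answers amino acid shortage and other stresses, had 10 higher and 3 lower of 29 on both scales (34.5% and 10.3%, the latter near the 11.3% of all genes tested, median 0.41 and 0.57), the lower count being 1 without KI sham 3 or KI TAC 7. Among the 10, Asns, Mthfd2 and Psat1 were under 1 RPKM in every sham heart and were tested only because of their TAC levels. Of the other 26, 7 were higher. Atf4 was at 15.7, 18 and 18 RPKM in sham and at 95.7, 46.9 and 51.7 RPKM in TAC hearts (1.78 ± 0.26, adjusted p = 0.000461). Ppp1r15a, which restores translation by dephosphorylating eIF2 alpha, was at 3.29, 5.14 and 4.39 RPKM in sham and at 35.1, 19.2 and 23.9 RPKM in TAC hearts (2.33 ± 0.27, adjusted p = 0.000121). Both were highest in KI TAC 5. Slc38a2, an amino acid transporter, rose by 1.63 (adjusted p = 0.00114) and Psat1, of serine synthesis, by 0.89 (1.65 with a pseudocount of 0.1, adjusted p = 0.00118). Gpt2, mitochondrial alanine aminotransferase, fell from 12.8, 16.1 and 16.6 to 6.83, 8.03 and 3.96 RPKM (-1.19 ± 0.23, adjusted p = 0.00265).

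Many genes that build ribosomes rose, and others did not pass the test. Of 66 tested Myc and ribosome biogenesis genes, 41 were higher and none lower on both scales, with medians of 0.59 and 0.73. Counts without 1 heart were 29 (without KI sham 3) to 39 higher, with 1 lower without KI TAC 5. Rrp12, a factor for export of ribosomal subunits, was at 9.53, 7.43 and 8.90 RPKM in sham and at 33.6, 37.7 and 32.8 RPKM in TAC hearts (1.90 ± 0.23, adjusted p = 0.000159). The 3 TAC hearts lay close together, and KI TAC 5 did not stand out. Gnl3, nucleostemin, rose from 1.43, 1.43 and 1.08 to 5.47, 4.89 and 4.03 RPKM, Tsr1 from 2.45, 2.01 and 2.18 to 7.07, 6.49 and 6.27 RPKM, and Nop2, an rRNA methyltransferase chosen after its values were seen, from 8.81, 9.78 and 8.64 to 23.3, 18.1 and 19.5 RPKM. Their log2 fold changes were 1.32, 1.24 and 1.07 (adjusted p = 0.000197, 0.000206 and 0.00151). The class mean of log2(RPKM + 1) was 2.38, 2.52 and 2.40 in sham and 3.16, 3.01 and 3.09 in TAC hearts. The E-box CACGTG, to which Myc with Max binds, was in 14 of 64 promoters of the class (21.9%), against 7.15% of all promoters and 6 of 25 promoters of clock genes (24%). Of 35 members higher on both scales with a promoter, 8 held the E-box, against 14 of all 57 members with a promoter. In the promoter of Nop2 (chr6:125131633-125131932, plus strand) it lies 60 bases before the start, in capitals.
Nop2: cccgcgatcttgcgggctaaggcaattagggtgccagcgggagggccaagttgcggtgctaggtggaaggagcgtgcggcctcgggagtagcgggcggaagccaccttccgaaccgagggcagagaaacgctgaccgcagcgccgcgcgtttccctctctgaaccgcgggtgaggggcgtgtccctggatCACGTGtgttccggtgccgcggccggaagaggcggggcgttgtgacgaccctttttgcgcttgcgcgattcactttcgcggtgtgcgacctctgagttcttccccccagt

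Ribosomal protein genes themselves were divided by the scale. Of 79 tested, 6 were higher on both scales and on the deposited scale (7.59%, against 8.52% of all genes tested), and 38 were higher on the median-ratio scale, with none lower on either (median 0.44 and 0.61). The count on both scales moved with the heart left out, from 2 without KI sham 1, KI sham 3, KI TAC 6 or KI TAC 7 to 36 without KI sham 2, and the median on the deposited scale from 0.28 without KI sham 1 to 0.69 without KI sham 2. The class was low in KI sham 1 and high in KI sham 2, with class means of log2(RPKM + 1) of 4.55, 5.35 and 4.80 in sham and 5.17, 5.40 and 5.51 in TAC hearts. Rpl10a, called on both scales, was at 25.5, 38.2 and 29.2 RPKM in sham and at 66.4, 55.6 and 66.4 RPKM in TAC hearts (1.01 ± 0.21, adjusted p = 0.00446), and Rps28 at 11, 19.1 and 14.4 and at 24.9, 28.7 and 32.7 RPKM (0.94 ± 0.22, adjusted p = 0.00765). Rpl4 is an example of a call on the median-ratio scale only (0.73, adjusted p = 0.00914, against 0.56 and 0.0658). Processed pseudogenes of ribosomal protein genes make their read counts uncertain.

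Of 47 tested translation factors, 7 were higher on both scales (14.9%, against 8.52% of all genes tested). On the median-ratio scale, where 13.9% of all genes tested were higher, 18 were. None was lower, and the medians were 0.23 and 0.40, the former 0.36 without KI sham 2 and 0.14 without KI TAC 7. Eif1a, of start codon selection, was at 1.61, 1.80 and 1.43 RPKM in sham and at 7.53, 7.21 and 6.72 RPKM in TAC hearts (1.64 ± 0.15, adjusted p = 1.69e-05). Eif4a1, the helicase of the cap-binding complex, was at 17.2, 18.6 and 15.4 RPKM in sham and at 36.7, 50.8 and 62.8 RPKM in TAC hearts (1.47 ± 0.20, adjusted p = 0.000247). Both were separated by group, Eif4a1 with its lowest TAC value in KI TAC 5. Eif5 and Etf1, the release factor, rose by 1.33 and 0.92 (adjusted p = 0.000674 and 0.00124). Proteasome genes counted 3 higher and 2 lower of 48 on both scales (6.25% and 4.17%, below the shares of all genes tested), but 17 higher on the median-ratio scale and 11 higher on both scales without KI TAC 5 (median 0.32 and 0.48). The higher count was 1 without KI sham 1, KI sham 3, KI TAC 6 or KI TAC 7, and the median on the deposited scale was 0.19 without KI sham 1, 0.49 without KI sham 2 and 0.48 without KI TAC 5. Psmd11, of the regulatory particle, rose from 5.88, 7.95 and 7.20 to 17.0, 16.9 and 14.6 RPKM (1.1 ± 0.19, adjusted p = 0.00131). Of 37 SR and hnRNP proteins, which govern splicing, 12 were higher and none lower (median 0.31 and 0.46), with 6 to 11 when 1 heart was left out (6 without KI sham 3 and 7 without KI TAC 6). Hnrnpa3, Hnrnpa1 and Hnrnpf rose by 0.97, 0.95 and 0.74 (adjusted p = 0.00119, 0.00341 and 0.00328).

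Chemokines, cytokines and acute inflammatory genes that were called were all higher. Of 36 listed, 27 were in the table and 22 were tested, of which 16 were higher and none lower on both scales (median 1.30 and 1.43), with 15 to 17 when a heart was left out. Of the 22, 11 were under 1 RPKM in every sham heart, among them Ccl2, Lcn2, Ccl7 and Ptgs2, and were tested only because of their TAC levels. The count and the median therefore say little about the list. Among the other 11, 6 were higher on both scales, and without a minimum 19 of the 27 in the table were (median 1.15 and 1.24). Ccl2, which recruits monocytes, was at 0.755, 0.495 and 0.433 RPKM in sham and at 28.8, 13.3 and 20.2 RPKM in TAC hearts (3.74 ± 0.31, adjusted p = 1.26e-05). Serpina3n, an acute-phase protease inhibitor, was at 1.98, 3.40 and 4.57 RPKM in sham and at 41.8, 99.7 and 128 RPKM in TAC hearts (4.30 ± 0.35, adjusted p = 1.07e-05). Serpina3n was lowest in KI TAC 5 and Ccl2 highest there, while neither gene overlapped between groups. Lcn2, lipocalin 2, which neutrophils also make, was at 0.593, 0.707 and 0.423 RPKM in sham and at 10.0, 26.7 and 62.1 RPKM in TAC hearts (4.09 ± 0.51, adjusted p = 0.000181). Ccl7 and Ptgs2, the inducible cyclooxygenase, had fold changes of 2.69 and 1.79 (4.21 and 4.05 with a pseudocount of 0.1).

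Neutrophil markers moved with this class, although the number called says nothing of the list, since only markers raised by TAC reached the minimum. S100a8 was at 0.059, 0.239 and 0.0444 RPKM in sham and at 6.13, 3.78 and 1.14 RPKM in TAC hearts, and S100a9 at 0.0784, 0 and 0.059 and at 12.3, 6.59 and 2.55 RPKM, in both cases highest in KI TAC 5. Their fold changes were 1.91 and 2.77 (3.97 and 5.42 with a pseudocount of 0.1, adjusted p = 0.00254 and 0.000228). Csf3r, the receptor of granulocyte colony-stimulating factor, had 0.340, 0.156 and 0.401 RPKM in sham and 1.87, 0.892 and 0.483 RPKM in TAC hearts (0.63, adjusted p = 0.0363), and its call was lost without KI sham 1 (0.66, adjusted p = 0.0657), KI sham 2 (0.55, adjusted p = 0.112), KI sham 3 (0.69, adjusted p = 0.0688), KI TAC 5 (0.37, adjusted p = 0.138) or KI TAC 6 (0.67, adjusted p = 0.0657). The part of these cells in the inflammatory values was not tested.

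Of 30 tested genes of IL-6 family and NF-kB signalling, 11 were higher and 1 lower on both scales (36.7% and 3.33%, against 8.52% and 11.3% of all genes tested, median 0.45 and 0.61). Socs3, the feedback inhibitor of cytokine receptors that signal through STAT3, was at 5.92, 4.14 and 3.59 RPKM in sham and at 110, 66.5 and 47.2 RPKM in TAC hearts (3.70 ± 0.34, adjusted p = 1.87e-05). Tnfrsf12a, the TWEAK receptor, was at 19.0, 18 and 12.8 RPKM in sham and at 327, 220 and 181 RPKM in TAC hearts (3.77 ± 0.35, adjusted p = 2e-05). Osmr, the oncostatin M receptor, was at 2.14, 1.33 and 1.72 RPKM in sham and at 8.63, 7.78 and 8.28 RPKM in TAC hearts, and the fold changes of Osmr and of Il4ra were 1.77 and 1.96 (adjusted p = 0.00011 and 2.9e-05). Interferon-response genes had 1 higher and 8 lower of 34 on both scales (2.94% and 23.5%, median -0.48 and -0.39), the lower count being 3 to 8 when a heart was left out (3 without KI sham 3, 4 without KI TAC 6 and 5 without KI sham 2 or KI TAC 5). Gbp5, a guanylate-binding protein, fell from 0.875, 1.03 and 1.31 to 0.328, 0.376 and 0.368 RPKM, and Usp18, which removes the ubiquitin-like ISG15, from 1.67, 1.90 and 1.46 to 0.852, 0.792 and 0.921 RPKM. These low genes had fold changes of -0.61 and -0.53 (-1.34 and -0.89 with a pseudocount of 0.1, adjusted p = 0.00587 and 0.0119). Irf1 did not pass the test (-0.23, adjusted p = 0.252). Irf8, a factor of myeloid cells, was the higher member, at 1.69, 1.42 and 1.34 RPKM in sham and 3.78, 2.10 and 2.72 RPKM in TAC hearts (0.62, adjusted p = 0.0315), a call lost without KI sham 2 (0.60, adjusted p = 0.0771), KI sham 3 (0.58, adjusted p = 0.107), KI TAC 5 (0.46, adjusted p = 0.122) or KI TAC 7 (0.64, adjusted p = 0.0515).

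Among genes of the extracellular matrix, matricellular and protease genes were called mostly higher. Of 43 tested matricellular proteins and matrix proteases with their inhibitors, 19 were higher and 2 lower on both scales (median 0.58 and 0.66), with 15 to 20 higher when a heart was left out. Of the 43, 6 were under 1 RPKM in every sham heart, and 3 of these were among the 19. Timp1, an inhibitor of matrix metalloproteinases, was at 1.47, 0.709 and 0.555 RPKM in sham and at 23.3, 17.9 and 26.9 RPKM in TAC hearts (3.64 ± 0.22, adjusted p = 2.2e-06). Thbs1, thrombospondin 1, was at 3.77, 0.955 and 1.18 RPKM in sham and at 188, 80.6 and 46.7 RPKM in TAC hearts (5.05 ± 0.42, adjusted p = 1.27e-05). Both had gaps between groups, and KI TAC 5 was highest for Thbs1. Mmp15, a membrane-type metalloproteinase, fell from 138, 113 and 117 RPKM in sham to 27.6, 19.0 and 21.5 RPKM in TAC hearts (-2.39 ± 0.24, adjusted p = 4.92e-05).

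Collagens and fibroblast matrix genes had 5 higher and 6 lower of 48 on both scales (10.4% and 12.5%, near the 8.52% and 11.3% of all genes tested) and 10 lower on the deposited scale (median -0.27 and -0.11), with 2 higher and 2 lower without KI sham 3, 6 higher and 9 lower without KI TAC 5, and 2 and 3 lower without KI TAC 6 and 7 in turn. The median on the deposited scale was -0.05 without KI sham 1. Col1a1, the main fibrillar collagen chain, was at 130, 74.7 and 64.4 RPKM in sham and at 47.3, 43.1 and 85.2 RPKM in TAC hearts, with overlap (-0.61, adjusted p = 0.455). Mfap5, of elastic microfibrils, rose from 5.03, 3.55 and 3.13 to 13.1, 14 and 19.1 RPKM and Vcan, versican, from 1.96, 0.532 and 0.699 to 4.88, 3.51 and 5.25 RPKM. Fibroblast markers, summed, overlapped between groups, as given above.

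Few genes of oxidative phosphorylation passed the test. Of 79 tested nuclear-encoded genes, limma called none on the deposited scale and 1 on the median-ratio scale (median 0.20 and 0.37), with 1 and 15 at an unadjusted p under 0.05, all higher, and 1 called higher by limma-voom. The medians were 0.04 and 0.20 without KI sham 1 and 0.43 and 0.59 without KI sham 2. The deposited median was 0.33 without KI TAC 5 and 0.10 without KI TAC 6. Of 12 genes of the mitochondrial genome, limma called none on either scale (median 0.02 and 0.19), with 1 lower at an unadjusted p under 0.05 on the deposited scale, 2 higher and 1 lower on the median-ratio scale, and 1 called higher by limma-voom. Cox7c, a subunit of cytochrome c oxidase, was the subunit called on the median-ratio scale (0.92, adjusted p = 0.033), with 46.0, 92.7 and 72.3 RPKM in sham and 98.3, 135 and 114 RPKM in TAC hearts. The class mean of log2(RPKM + 1) was 6.48, 7.29 and 6.80 in sham and 6.86, 7.29 and 7.08 in TAC hearts, so KI sham 2 lay as high as the highest TAC heart and KI sham 1 was the lowest. Genes of pyruvate dehydrogenase and the citric acid cycle had 2 lower and none higher of 32 (6.25% lower, against 11.3% of all genes tested, median -0.08 and 0.08), and these counts held without any single KI heart. Pdp2, a phosphatase that activates pyruvate dehydrogenase, fell from 10.2, 8.42 and 10.2 to 0.8, 2.33 and 1.91 RPKM (-2.02 ± 0.27, adjusted p = 0.000242), and its relative Pdp1 from 12.8, 12.9 and 14 to 6.93, 5.48 and 8.69 RPKM (-0.84 ± 0.18, adjusted p = 0.0053).

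Few genes of fatty acid use passed the test. Of 45 genes of fatty acid uptake and oxidation, 4 were higher and 2 lower on both scales (8.89% and 4.44%, against 8.52% and 11.3% of all genes tested, median 0.01 and 0.16), with 2 higher without KI sham 1 or 3 and none lower without KI sham 2, KI sham 3, KI TAC 5 or KI TAC 6. Cpt1b, the carnitine palmitoyltransferase of muscle mitochondria, was at 16.8, 18.5 and 19.2 RPKM in sham and at 8.27, 11.6 and 14.1 RPKM in TAC hearts. Its groups did not overlap and its fold change was -0.66 ± 0.18 (adjusted p = 0.0197), but the call was lost without KI sham 3 (-0.62, adjusted p = 0.0791) or KI TAC 5 (-0.47, adjusted p = 0.0768). Angptl4, an inhibitor of lipoprotein lipase, rose from 8.26, 4.52 and 4.35 to 28.6, 33.1 and 26.7 RPKM (2.22 ± 0.52, adjusted p = 0.00765), and Gpihbp1, which carries lipoprotein lipase to capillary walls, from 17.4, 29.3 and 24.4 to 45.2, 51.3 and 55.4 RPKM (1.09 ± 0.24, adjusted p = 0.00633). Of 29 PGC-1, ERR and PPAR metabolic regulators, 4 were higher and 8 lower on both scales (13.8% and 27.6%, against 8.52% and 11.3% of all genes tested) and 11 lower on the deposited scale (median -0.45 and -0.33). With 1 heart left out 6 to 8 were lower and 1 to 3 higher (1 without KI sham 1, KI sham 3, KI TAC 5 or KI TAC 6). Ppargc1a, the coactivator PGC-1 alpha, was at 17.9, 17.4 and 21.4 RPKM in sham and at 4.58, 7.47 and 6.44 RPKM in TAC hearts (-1.49 ± 0.32, adjusted p = 0.00518). Ppara, the fatty acid-sensing nuclear receptor, was at 27.1, 18.2 and 29.3 RPKM in sham and at 6.75, 8.85 and 8.47 RPKM in TAC hearts (-1.5 ± 0.28, adjusted p = 0.0023). Both were lowest in KI TAC 5 and separated by group. Rxra, the dimer partner of PPAR alpha, and the muscle regulator Perm1 fell by 0.88 and 1.08 (adjusted p = 0.00235 and 0.0029), while Pprc1, a growth-regulated relative of PGC-1, rose from 5.14, 3.08 and 4.03 to 14, 8.32 and 8.98 RPKM (1.16 ± 0.24, adjusted p = 0.00381).

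Genes of glucose uptake and glycolysis had 4 higher and 6 lower of 35 on both scales (11.4% and 17.1%, against 8.52% and 11.3% of all genes tested) and 10 lower on the deposited scale (median -0.07 and 0.09). Slc2a4, the insulin-responsive transporter GLUT4, was at 119, 158 and 145 RPKM in sham and at 51.2, 88.3 and 75.4 RPKM in TAC hearts (-0.99 ± 0.26, adjusted p = 0.0155), with no call on the deposited scale without KI sham 2 (-0.90, adjusted p = 0.0525), KI sham 3 (-0.96, adjusted p = 0.0572) or KI TAC 5 (-0.77, adjusted p = 0.0681). Tbc1d4, which holds GLUT4 vesicles in the cell, fell from 39.2, 20.6 and 31.3 to 10.2, 8.80 and 7.03 RPKM (-1.66 ± 0.22, adjusted p = 0.000238), and Phkg1, of phosphorylase kinase, from 3.99, 4.24 and 4.12 to 1.2, 1.35 and 1.34 RPKM (-1.16 ± 0.14, adjusted p = 0.000181). The transporter gene Slc2a8 fell by 1.16 (adjusted p = 0.000474). Pfkp, the platelet isoform of phosphofructokinase, rose from 5.65, 3.06 and 3.05 to 13.3, 17.1 and 15.1 RPKM (1.75 ± 0.23, adjusted p = 0.000209). Of 25 genes of branched-chain amino acid breakdown, 1 was lower and none higher on both scales (median -0.22 and -0.07). The shares were 4% and 0%, against 11.3% and 8.52% of all genes tested. Without KI sham 1 there were 2 lower, and without KI sham 3 or KI TAC 7 none. The deposited median of that class was -0.13 without KI sham 2 or KI TAC 5 and -0.39 without KI TAC 6.

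Ion channels had the largest share of members called lower among the 36 classes. Of 41 tested voltage-gated and potassium channel genes, 24 were lower and 1 higher on both scales, and 27 lower on the deposited scale (median -1.01 and -0.84), against 11.3% of all genes lower on both scales. The lower count was 19 to 24 when any single KI heart was left out. Kcnj3, a subunit of the acetylcholine-gated potassium channel that is richest in atria, was at 14.9, 11.3 and 17.1 RPKM in sham and at 2.27, 2.88 and 3.02 RPKM in TAC hearts (-2.04 ± 0.26, adjusted p = 0.000206). It was the 1 atrial marker called among 5 tested, and the summed atrial markers were lower in TAC hearts, as given above. The part of atrial tissue in these values was not tested. Kcnn2, a calcium-activated potassium channel, fell from 13.8, 10.8 and 10.9 to 3.20, 1.23 and 1.72 RPKM (-2.11 ± 0.28, adjusted p = 0.000227), and Scn4a, a muscle sodium channel, from 18.6, 14.7 and 22.2 to 3.91, 4.56 and 6.94 RPKM (-1.68 ± 0.20, adjusted p = 0.000151). Kcnh2, which encodes the channel of the rapid delayed rectifier current and was chosen after its values were seen, was at 53.8, 78.5 and 79.98 RPKM in sham and at 14.6, 19.5 and 26.5 RPKM in TAC hearts (-1.78 ± 0.26, adjusted p = 0.000452). Clcn1, the muscle chloride channel, fell from 2.95, 2.93 and 3.6 to 0.559, 0.5 and 0.175 RPKM (-1.57, or -2.76 with a pseudocount of 0.1, adjusted p = 9.97e-05). In each of these channels every TAC heart was below every sham heart. Kcne4, an inhibitory accessory subunit, was the member that rose, from 1.15, 1.31 and 1.24 to 3.40, 5.48 and 3.21 RPKM (1.14 ± 0.20, adjusted p = 0.00136).

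Calcium cycling genes were called in shares near those of all genes. Of 35 tested, 2 were higher and 5 lower on both scales (5.71% and 14.3%, against 8.52% and 11.3% of all genes tested) and 8 lower on the deposited scale (median -0.10 and 0.00), and without KI sham 3 there were 1 higher and none lower, and without KI sham 1, KI TAC 5 or KI TAC 6 there were 2 lower. Calm2, which encodes calmodulin, rose from 17.2, 18.7 and 14.3 to 40.3, 45 and 56.5 RPKM (1.44 ± 0.20, adjusted p = 0.000292). Pln, phospholamban, the inhibitor of the calcium pump of the sarcoplasmic reticulum, was at 230, 209 and 182 RPKM in sham and at 99, 152 and 83.2 RPKM in TAC hearts and was called on the deposited scale only (-0.93 ± 0.28, adjusted p = 0.0281, against -0.76 and 0.0629), a call that was lost without KI TAC 7 (-0.74, adjusted p = 0.0915). The list of inositol trisphosphate (IP3) receptors, to which Bcl-xL binds at the endoplasmic reticulum, and of calcineurin and NFAT signalling had 1 higher and 6 lower of 37 on both scales (2.70% and 16.2%, against 8.52% and 11.3% of all genes tested) and 9 lower on the deposited scale (median -0.34 and -0.20). That lower count was 1 without KI sham 3, 2 without KI sham 1 or KI TAC 6, and 4 without KI TAC 5 or KI TAC 7.

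Cytoskeleton genes that were called were all higher, and sarcomere genes were called in shares near those of all genes. Of 50 tubulins, non-muscle actins and actin-binding proteins, 23 were higher and none lower on both scales, and 33 were higher on the median-ratio scale (median 0.67 and 0.82), with 13 (without KI sham 3) to 24 when a heart was left out. Actn1, non-muscle alpha-actinin, rose from 8.03, 7.13 and 8.08 to 31.3, 18.1 and 29.5 RPKM (1.61 ± 0.20, adjusted p = 0.000192), and Myl12a, a non-muscle myosin light chain, from 51.8, 73.2 and 48.0 to 138, 170 and 140 RPKM (1.37 ± 0.22, adjusted p = 0.000945). Msn, moesin, and Tpm3 rose by 1.32 and 0.87 (adjusted p = 0.000872 and 0.000957). Summed smooth muscle and pericyte markers were also higher, as given above, with a median fold change of 0.15 over the 11 markers. Their part in these values was not tested. Of 41 sarcomere and Z-disc genes, 4 were higher and 4 lower (9.76% each, against 8.52% and 11.3% of all genes tested, median 0.11 and 0.28), with 2 lower without KI sham 3. Flnc, filamin C of the Z-disc, was at 176, 113 and 158 RPKM in sham and at 4122, 1381 and 848 RPKM in TAC hearts (3.52 ± 0.49, adjusted p = 0.000329), and Synpo2l at 79.5, 72.9 and 93.6 and at 721, 557 and 418 RPKM (2.74 ± 0.42, adjusted p = 0.000612). Obsl1, which links titin to myomesin, fell from 71.2, 75 and 75.8 to 39.8, 32.1 and 40.4 RPKM (-0.97 ± 0.17, adjusted p = 0.00149), and Myh7b from 11.5, 19.3 and 19.9 to 4.84, 6.75 and 2.10 RPKM (-1.75 ± 0.32, adjusted p = 0.00176, and -1.15 on the median-ratio scale without KI TAC 7, against -1.60 with it).

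Muscle ubiquitin ligases, their adaptors and proteases were mostly lower where called. Of 31 tested, 13 were lower and 1 higher on both scales (median -0.55 and -0.39), and 9 to 12 were lower when any single KI heart was left out. Asb2, a ligase substrate receptor that targets filamins, was at 403, 527 and 456 RPKM in sham and at 59.8, 68.8 and 136 RPKM in TAC hearts (-2.46 ± 0.31, adjusted p = 0.000197). Among the TAC hearts KI TAC 5 had the lowest Asb2 and the highest Flnc, and KI TAC 7 the highest Asb2 and the lowest Flnc. Klhl41, given below, had the same order of TAC hearts as Flnc. An order of 3 hearts is a description, and a link between Asb2 and Flnc was not tested. Klhl33 fell from 4.34, 3.90 and 4.31 to 0.781, 1.04 and 0.997 RPKM, with a fold change of -1.42 (adjusted p = 0.000223). Ky, a Z-disc protease-like protein that binds filamin C, fell from 9.53, 5.06 and 6.22 to 0.545, 0.156 and 0.583 RPKM (-2.45, or -3.81 with a pseudocount of 0.1, adjusted p = 0.000329). Fbxo32, atrogin-1, was at 28.4, 33.5 and 35.6 RPKM in sham and at 5.86, 21.1 and 17.7 RPKM in TAC hearts, and its call (-1.24 ± 0.37, adjusted p = 0.0264) was lost without KI sham 2 (-1.21, adjusted p = 0.0669), KI sham 3 (-1.17, adjusted p = 0.0874) or KI TAC 5, which also moved it to -0.72 (adjusted p = 0.0878). The member that rose was Klhl41, which stabilizes nebulin, from 19.9, 22.4 and 20.8 to 430, 268 and 144 RPKM (3.54 ± 0.37, adjusted p = 6.5e-05).

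**Figure D4:**
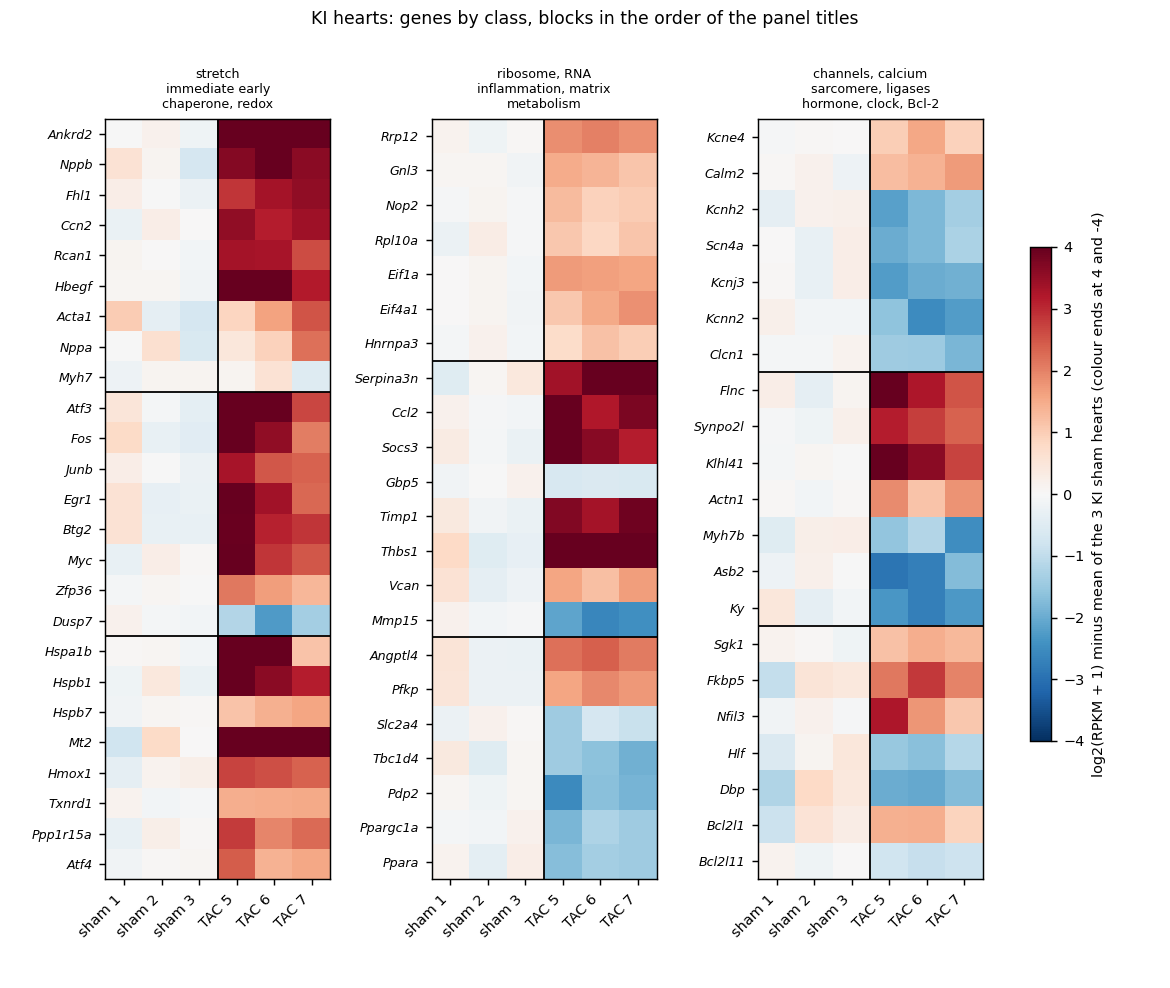
Heat map of log2(RPKM + 1) minus the mean of the 3 KI sham hearts on the deposited scale, with genes in 9 blocks by class and the 6 KI hearts as columns, sham to the left of the line and TAC to the right. Red is higher and blue lower, and colours end at 4 and -4. Stretch, immediate early and chaperone genes are mostly red and channel genes mostly blue in the TAC columns. In these blocks Dusp7 is blue, Kcne4 and Calm2 are red, and Myh7 differs between TAC hearts. KI TAC 5 reaches the red end of the colours for Fos, Atf3 and Hspa1b.

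Glucocorticoid-responsive genes that were called on both scales were all higher, and 1 was lower on the deposited scale alone. Of 27 tested, 11 were higher and none lower on both scales (median 0.80 and 0.96), and 10 or 11 were higher when any single KI heart was left out. Without KI sham 1, 1 was lower on both scales. The medians were 0.41 and 0.56 without KI sham 1, which had the lowest class mean of the sham hearts. Sgk1, a kinase induced by corticosteroids, was at 13.6, 12.7 and 10.9 RPKM in sham and at 29.4, 35.4 and 31.8 RPKM in TAC hearts (1.31 ± 0.19, adjusted p = 0.000419). Fkbp5, a cochaperone of the glucocorticoid receptor, was at 1.07, 4.77 and 4.42 RPKM in sham and at 16.4, 27.5 and 14.7 RPKM in TAC hearts (2.30 ± 0.54, adjusted p = 0.00794). Neither gene overlapped between groups. Gadd45g, a stress-inducible growth arrest gene, was at 5.69, 11.2 and 6.83 RPKM in sham and at 263, 147 and 118 RPKM in TAC hearts (4.28 ± 0.32, adjusted p = 1.07e-05). The class mean of log2(RPKM + 1) was 3.88, 4.46 and 4.35 in sham and 5.63, 5.57 and 5.39 in TAC hearts.

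Of 21 circadian clock genes, 2 were higher and 3 lower on both scales (9.52% and 14.3%, near the shares of all genes tested, median 0.07 and 0.18), with 6 lower without KI sham 1 and 1 lower without KI sham 2 or 3 or KI TAC 5 or 6. Dbp, a clock-output factor, was at 25.4, 105 and 81.9 RPKM in sham and at 14.4, 13.9 and 17.6 RPKM in TAC hearts (-1.92 ± 0.56, adjusted p = 0.0253), a call that was lost without KI sham 2 (-1.53, adjusted p = 0.0993), KI sham 3 (-1.70, adjusted p = 0.0967), KI TAC 5 (-1.88, adjusted p = 0.0682) or KI TAC 6 (-1.86, adjusted p = 0.07). Hlf, of the same family, fell from 4.25, 7.42 and 9.82 to 1.74, 1.44 and 2.54 RPKM (-1.44 ± 0.29, adjusted p = 0.0031), and their antagonist Nfil3 rose from 6.81, 8.62 and 7.32 to 79.2, 28.2 and 17.2 RPKM (2.03 ± 0.43, adjusted p = 0.00477), as did Csnk1d (0.76, adjusted p = 0.00568). Arntl, the core activator of the clock, was at 2.04, 0.132 and 0.160 RPKM in sham and at 1.81, 0.969 and 0.704 RPKM in TAC hearts, so that KI sham 1 had the lowest Dbp and the highest Arntl of the sham hearts. The hour of day at which each heart was taken is not given in the sources used here, and its part in these values was not tested.

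Of 24 p53 targets and cell cycle arrest genes, 6 were higher and 3 lower on both scales (25.0% and 12.5%, the latter near the 11.3% of all genes tested, median 0.11 and 0.20), and with 1 heart left out 4 to 6 were higher and 0 to 2 lower (0 without KI sham 3 or KI TAC 7). Cdkn1a, the cell cycle inhibitor p21, rose from 10.9, 7.84 and 5.0 to 117, 86.6 and 65.7 RPKM (3.37 ± 0.56, adjusted p = 0.00104) and Plk3 rose by 1.64 (adjusted p = 0.00211). Of 39 endothelial growth factors and receptors, 3 were higher and 4 lower (7.69% and 10.3%, near the 8.52% and 11.3% of all genes tested, median -0.11 and 0.04), with 1 lower without KI sham 1, KI sham 3 or KI TAC 6 and 1 higher without KI sham 3. Vegfa, the main angiogenic ligand, did not pass the test, with 130, 101 and 103 RPKM in sham and 76.1, 76.0 and 86.5 RPKM in TAC hearts (-0.48, adjusted p = 0.0675). The kinase gene Sphk1, which makes sphingosine 1-phosphate, rose from 0.660, 0.430 and 0.426 to 48.5, 17.7 and 8.53 RPKM (3.78 ± 0.48, adjusted p = 0.000197).

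The largest decreases among genes whose groups did not overlap held several regulators outside these classes. Pde4a, a phosphodiesterase of cyclic AMP, was at 28.0, 16.6 and 22.2 RPKM in sham and at 3.49, 2.71 and 4.76 RPKM in TAC hearts (-2.32 ± 0.26, adjusted p = 9.5e-05). Gal3st3, a sulfotransferase, was at 8.06, 7.88 and 6.75 RPKM in sham and at 0.804, 0.404 and 0.838 RPKM in TAC hearts (-2.35 ± 0.23, adjusted p = 3.31e-05). Dact3, an antagonist of Wnt signalling, was at 123, 99.3 and 66.4 RPKM in sham and at 35.1, 17.1 and 14.6 RPKM in TAC hearts (-2.12 ± 0.35, adjusted p = 0.00104). KI sham 1 was highest for each of these genes and also for Lingo3, which fell from 86.5, 33.3 and 27.7 to 10.6, 3.81 and 8.13 RPKM (-2.47 ± 0.51, adjusted p = 0.00411). The transcription factor gene Foxo6, Fam78a and the R-spondin receptor gene Lgr6 fell by 2.30, 2.19 and 2.12 (adjusted p = 0.000709, 0.000601 and 0.00133). The 10 largest increases by the same rule were led by Ankrd2, Mt2 and Thbs1.

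Whether KI hearts responded differently from WT hearts was tested by the interaction of genotype and surgery, the log2 fold change in KI minus that in WT hearts. The contrasts of the 2 genotypes share no control hearts. No gene passed an adjusted p of 0.05 on either scale in limma, with 1668 genes at an unadjusted p under 0.05 on the deposited scale (14.8% of the genes tested, 3.86% with a positive and 11% with a negative interaction) and 1772 on the median-ratio scale (15.8%, 9.26% and 6.5%). The smallest adjusted p was 0.0764 on the deposited and 0.0961 on the median-ratio scale, and 50 and 3 genes were under 0.10. The count depended on single hearts: without WT TAC 9 there were 240 and 117 calls, without KI TAC 7 there were 182 and 23, without WT TAC 10 8 and 3, and limma-voom called 0 with all hearts. WT TAC 10 lay within the range of WT sham hearts for AP-1 factors, with a class mean of log2(median-ratio RPKM + 1) of 3.48 against 3.39 to 3.49, while WT TAC 7 and 9 were at 4.47 and 4.98. It lay above WT sham hearts for other classes, with class means of 7.13 against 5.25 to 5.45 for hypertrophy and stretch genes and of 2.40 against 1.27 to 1.38 for chemokines and cytokines. The effects below are therefore differences in size that did not pass the correction, given with their unadjusted p from the limma fit of 3 hearts in each of 4 groups, and not tested differences of classes. Over all genes 36.6% of interactions were positive and 63.4% negative on the deposited scale, and 53.04% and 46.96% on the median-ratio scale. Counts of signs below stand beside these shares.

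Genes of oxidative phosphorylation had interactions of one sign. All 79 had a larger fold change in KI than in WT hearts on both scales, with a median interaction of 0.74 on the deposited and 0.94 on the median-ratio scale, and 44 and 66 of 79 had an unadjusted p under 0.05. The class median was 0.20 in KI and -0.54 in WT hearts on the deposited scale, and 0.37 and -0.58 on the median-ratio scale, where 5 of the subunits were called lower in WT hearts. Cox7c had an interaction of 1.22 (unadjusted p = 0.00919 in limma). As these genes vary together from heart to heart, with KI sham 1 low and KI sham 2 high, they are not independent observations. WT sham 1 also stood apart, with a class mean of log2(RPKM + 1) of 7.22 against 6.71 and 6.67 in the other WT sham hearts. It had 6.36% of its reads on genes of the mitochondrial genome, against 11.6% and 11.9%. Without WT sham 1 the median interaction was 0.56 on the deposited and 0.80 on the median-ratio scale. The WT median was then -0.39 and -0.46, and 14 and 54 of 79 had an unadjusted p under 0.05. Without KI sham 1 the median interaction was 0.56 and 0.77, with 14 and 57 of 79. All 79 interactions stayed positive whichever of the 12 mice was left out. Cardiomyocyte markers moved with this class, with a median fold change of 0.00 in KI and -0.63 in WT hearts on the deposited scale and of 0.17 and -0.67 on the median-ratio scale. Their median interaction was 0.66 and 0.87 (7 of 10 positive). The mean of log2(RPKM + 1) over these markers was 9.12 to 9.32 in WT TAC and 9.64 to 9.92 in WT sham hearts. It was 9.47 to 9.96 in KI TAC and 9.58 to 9.96 in KI sham hearts. The summed levels in WT hearts overlapped (15399 to 25079 RPKM after TAC and 18558 to 24577 RPKM after sham). The part of these cells in the metabolic values was not tested. The same direction was seen for fatty acid genes (36 and 40 of 45 positive on the deposited and the median-ratio scale, median 0.45 and 0.66), citric acid cycle genes (28 and 29 of 32, 0.40 and 0.61), branched-chain amino acid genes (23 and 24 of 25, 0.36 and 0.56) and ribosomal proteins (69 and 77 of 79, 0.24 and 0.45), against medians of -0.13 and 0.03 over all genes. On the deposited scale the median was 0.08 without KI sham 1 and 0.47 without KI sham 2 for ribosomal proteins, and without KI TAC 6 it was 0.28 for fatty acid and 0.21 for branched-chain amino acid genes.

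Glucocorticoid-responsive genes had the largest median interaction, 1.26 on the deposited and 1.45 on the median-ratio scale, with 23 of 27 positive and 13 of 27 at an unadjusted p under 0.05 on each scale, and it was 0.99 to 1.85 on the deposited scale when 1 of the 12 mice was left out. Their median fold change was 0.80 in KI and -0.05 in WT hearts. The WT TAC hearts were not uniform, since the class mean of log2(median-ratio RPKM + 1) was 5.15 in WT TAC 9 and 3.85 and 3.62 in WT TAC 7 and 10, against 3.64 to 4.41 in WT sham hearts and 5.35 to 5.91 in KI TAC hearts. Sgk1 had an interaction of 1.71 (unadjusted p = 1.64e-05, adjusted p = 0.0919), since its fold change was 1.31 in KI and -0.40 in WT hearts, and Fkbp5 one of 2.35 (unadjusted p = 0.00815, adjusted p = 0.205), with 2.30 and -0.05. Immediate early genes other than AP-1 had medians of 1.59 in KI and 0.58 in WT hearts (17 and 18 of 24 positive on the deposited and the median-ratio scale, median interaction 0.67 and 0.86, or 0.30 and 0.40 without KI TAC 5), and Zfp36 fold changes of 1.70 and 0.05 (interaction 1.64, adjusted p = 0.147). Heat shock genes had medians of 0.38 and 0.10 (36 and 39 of 43 positive). Mt2 had fold changes of 5.06 and 1.89 (interaction 3.17, unadjusted p = 0.00105, adjusted p = 0.129). Bcl2l1 itself had fold changes of 1.26 and -0.26, an interaction of 1.51 (unadjusted p = 0.0174, adjusted p = 0.248).

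Negative interactions were frequent among channels and among collagens and fibroblast matrix genes. Of matricellular and protease genes, 17 of 43 interactions were positive on the deposited and 19 of 43 on the median-ratio scale. Channels had a median fold change of -1.01 in KI and -0.37 in WT hearts, with 33 of 41 interactions negative on the deposited and 30 of 41 on the median-ratio scale (median -0.46 and -0.31, and -0.29 and -0.20 without KI TAC 5). Collagens and fibroblast matrix genes had medians of -0.27 and 0.55, with 41 and 37 of 48 negative on the deposited and the median-ratio scale (median -0.75 and -0.56, and -0.39 and -0.26 without WT TAC 10). An unadjusted p under 0.05 with a negative interaction was seen for 18 and 14 of them, among them Col1a1 (-0.61 in KI and 1.57 in WT hearts, interaction -2.17, unadjusted p = 0.0149). Fibroblast markers, 6 of 10 of which are also in that list, moved with it, with medians of -0.22 in KI and 0.49 in WT hearts and 8 of 10 interactions negative (median -0.28 and -0.09). The mean of log2(RPKM + 1) over these markers was 5.14 in WT TAC 10 and 4.53 and 4.10 in WT TAC 7 and 9, against 4.05 to 4.28 in WT sham, 4.17 to 4.57 in KI sham and 4.02 to 4.52 in KI TAC hearts. The part of fibroblasts in the matrix values was not tested. IP3 receptor, calcineurin and NFAT genes had medians of -0.34 and 0.05, and targets of the unfolded protein response of -0.01 and 0.50. Of the latter, 3 of 29 interactions were positive on the deposited and 9 of 29 on the median-ratio scale (median -0.32 and -0.14). The latter median was -0.04 without WT TAC 7 and -0.25 without WT TAC 10. Single genes with negative interactions included Mmp15 (-2.39 in KI and -0.87 in WT hearts, adjusted p = 0.104), Tbc1d4 (-1.66 and -0.21, adjusted p = 0.0988), Pde4a (-2.32 and -0.60, adjusted p = 0.0988) and Dact3 (-2.12 and 0.19, adjusted p = 0.0988). Interactions of hypertrophy and stretch genes had no common sign. Of 17, 7 were positive on the deposited and 9 on the median-ratio scale (median -0.20 and 0.01). On the deposited scale 3 positive and 2 negative interactions of this class had an unadjusted p under 0.05. Single members differed in both directions. Nppa had a fold change of 1.19 in KI and 3.16 in WT hearts, and Ankrd2 one of 6.15 and 3.94 (interaction 2.21, unadjusted p = 0.00648). None of these differences passed the adjusted threshold.

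**Figure D5:**
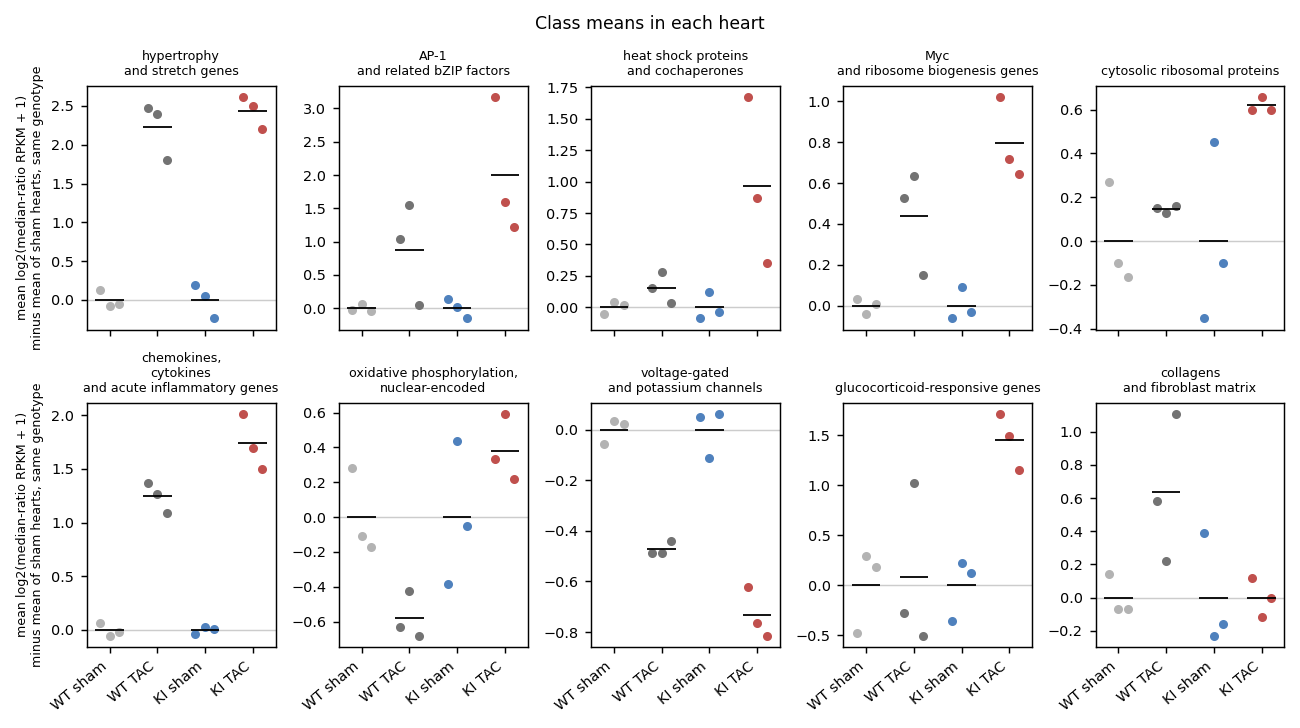
Mean log2(median-ratio RPKM + 1) of the tested members of 10 classes in each of the 12 hearts, minus the mean of the 3 sham hearts of the same genotype (y axis), with the group mean as a black line. AP-1 and heat shock genes have KI TAC 5 on top of a spread group, glucocorticoid-responsive genes are raised in the 3 KI TAC hearts and in WT TAC 9 but not in WT TAC 7 and 10, and oxidative phosphorylation genes lie below the mean of sham hearts in the 3 WT TAC hearts.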

How the data were processed

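RNA of 12 mouse hearts, 3 in each of 4 groups set by the labels for genotype and treatment, was sequenced as reads of 75 bases on an Illumina NextSeq instrument. The protocol names both a paired-end library and single-read sequencing. The authors trimmed reads with Trimmomatic 0.39, mapped them to GRCm38 with HISAT2 2.2.1, counted them on Ensembl genes with HTSeq 0.6.1, and used edgeR 3.18.1 and limma 3.32.10 in R 4.1.1, per the submitters' processing notes and the methods. They deposited a table of 13552 genes without naming its unit or filter. The deposited values are RPKM, since values times exon length (GENCODE M21, 13546 genes matched) summed to nearly the same total in every mouse. Low values came out as whole reads for 95.8% to 97.7% of those checked in each KI heart (tolerance 0.05), which gave depth and recovered reads.

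A minimum of 1 RPKM in 3 or more mice left 11240 genes, and log2(RPKM + 1) was fitted with limma 3.58.1 under R 4.3.3 (lmFit, then eBayes with a trend, 4 groups, 12 mice), two-sided, with a Benjamini-Hochberg adjusted p of 0.05 as the threshold. The median-ratio scale used the 13506 genes above 0 in every mouse. An exact test of 3 against 3 hearts cannot go below p = 0.1, so single values were not permuted. Alternatives were other scalings, pseudocount, filters, thresholds, the 6 KI mice alone, limma-voom on recovered reads, and leaving out each mouse. The mice are separate animals by their labels, and replicates of a group differed by more than sampling noise.

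The members, gene lists and tests were chosen with earlier results of these data known. No set test was run, and classes are described by counts and medians. Named genes were Bcl2l1, Nppa and Myh7, the 10 largest increases and decreases called on both scales without overlap (predicted genes and pseudogenes passed over), up to 4 members a class with the smallest adjusted p and 2 in the other direction, the first listed gene, and up to 2 members called on 1 scale only. Some genes that this rule names are not reported here. Marker lists of epicardium and thymus, with 1 and 0 genes tested, had no calls. Promoters and their coordinates were taken from RefSeq (GRCm38.p6). Tables and plots were made in Python 3.11.15 with NumPy 2.4.6, pandas 2.3.3 and Matplotlib 3.10.9.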

Additional observations from a re-analysis of the deposited data

How the results depend on the processing

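The count of called genes in KI TAC against KI sham hearts was 2620 on the deposited scale and stayed within 1.5 times of it with a pseudocount of 0.1, no filter, the 6 KI mice alone (2313), an adjusted p of 0.10 (3633) and the other scalings, but was 848 with a log2 fold change of at least 1 required. It ranged from 1453 (without KI sham 3) to 2741 (without KI TAC 7) when 1 mouse was left out. On the median-ratio scale it was 2829, 811 with a log2 fold change of at least 1, 2810 with limma-voom, and 1474 (without KI sham 3) to 2504 with 1 mouse left out. The share of calls that were higher was 36.8% on the deposited scale, 41.5% with scaling outside mitochondrial and abundant genes, 44.8% with upper-quartile scaling, 48.3% with quantile normalization and 55.04% on the median-ratio scale. The interaction called 0 genes on both scales, 50 on the deposited and 3 on the median-ratio scale at an adjusted p of 0.10, and 0 to 240 and 0 to 117 with 1 mouse left out (240 and 117 without WT TAC 9, 182 and 23 without KI TAC 7, 8 and 3 without WT TAC 10). The causes were not tested. Of the 36 classes, 28 had a median above that of all genes, and 25 to 28 did in every alternative run. Of 142 genes named, 121 kept their direction and side of the threshold in every alternative, and 13 lost their call without 1 mouse. The sign turned only for Myh7, which was not called: its log2 fold change was -0.05 without KI sham 1, -0.21 without KI TAC 6 and -0.042 without KI TAC 6 on the median-ratio scale, in a range of -0.21 to 0.60 with 1 mouse left out (0.35 without KI TAC 7). No paired analysis was possible because the KI sham mice (1, 2 and 3) and the KI TAC mice (5, 6 and 7) share no replicate numbers. Depth limits low genes such as Fosl1 and Egr2, whose fold changes depend on the pseudocount.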
